A study of Homo sapiens with 54 samples.

Results

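The 10 genes described here encode the human condensins and type II topoisomerases: NCAPG, NCAPH and NCAPD2 of condensin I, NCAPG2, NCAPD3 and NCAPH2 of condensin II, the shared subunits SMC2 and SMC4, and the enzymes TOP2A and TOP2B. They were chosen by name, with earlier results of these data known. Each was read from the transcript cluster, the unit of a whole-transcript array, that the platform annotation pairs with that symbol alone, and from the cluster with the highest mean where a symbol had several. All 10 were measured, each by 1 cluster, among 18417 genes so defined.

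The cells were NCI-H460, an established line derived from a human lung large cell carcinoma, held in medium without serum for 24 h before the experiment. Cultures received no pretreatment, 5 uM nicotine, or cigarette smoke extract dosed at 5 uM nicotine equivalent. After 2 h they were left without therapy, given a single 6 Gy dose of cesium-137 radiation, or exposed to 1 uM cisplatin, a platinum drug that crosslinks DNA. RNA was taken 2 h or 24 h later from 3 cultures of each of the 9 treatments, giving 18 groups and 54 arrays, and the labels call the 3 cultures biological replicates. Below, untreated cells are those with neither agent, and a group named by a single agent had that agent alone. All cultures came from 1 line at 1 passage and were treated concurrently, so the p-values measure the spread between cultures of this experiment.

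Condensins are ring-shaped ATPases that fold chromatin into loops. A SMC2 and SMC4 pair forms the motor of both complexes, a kleisin (NCAPH or NCAPH2) closes the ring, and a pair of HEAT-repeat subunits (NCAPD2 and NCAPG, or NCAPD3 and NCAPG2) completes it. Condensin I reaches chromosomes after the nuclear envelope breaks down, whereas condensin II is nuclear through the cell cycle. Topoisomerase II passes a DNA duplex through a transient break in another duplex, which untangles sister chromatids. TOP2A is made mainly in proliferating cells, with a peak in G2 and mitosis, while TOP2B is also present in non-dividing cells and acts in transcription.

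Because most of these transcripts moved together, the bases before the transcription start are shown for 4 genes whose levels the results turn on. The sequences come from RefSeq, build GRCh38.p14, on the strand of the gene, and each holds the 250 bases before a start site. Capitals mark every TTTGAA, the core of the cell cycle homology region motif, and every CCAAT, in either orientation (TTCAAA and ATTGG on the strand shown). The TOP2A window is chr17:40417897-40418146 on the minus strand, the NCAPG window chr4:17810729-17810978 and the NCAPH window chr2:96335516-96335765, both on the plus strand. The TOP2B window is chr3:25664908-25665157 on the minus strand, before one of the start sites that RefSeq gives for it.
TOP2A: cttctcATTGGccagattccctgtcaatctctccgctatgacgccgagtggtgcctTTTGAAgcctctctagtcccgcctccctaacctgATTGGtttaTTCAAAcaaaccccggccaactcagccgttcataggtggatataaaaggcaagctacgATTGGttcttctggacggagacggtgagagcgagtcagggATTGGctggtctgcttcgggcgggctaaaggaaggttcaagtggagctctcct
NCAPG: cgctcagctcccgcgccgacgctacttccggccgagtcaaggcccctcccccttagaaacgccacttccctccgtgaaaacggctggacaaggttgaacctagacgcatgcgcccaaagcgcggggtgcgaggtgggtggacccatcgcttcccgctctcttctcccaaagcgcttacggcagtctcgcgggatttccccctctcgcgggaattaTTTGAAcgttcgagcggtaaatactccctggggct
NCAPH: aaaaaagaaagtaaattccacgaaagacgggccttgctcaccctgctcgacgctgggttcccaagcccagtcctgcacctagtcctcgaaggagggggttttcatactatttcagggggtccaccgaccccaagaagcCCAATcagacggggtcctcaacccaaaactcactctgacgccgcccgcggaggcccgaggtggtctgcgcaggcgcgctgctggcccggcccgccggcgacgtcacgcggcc
TOP2B: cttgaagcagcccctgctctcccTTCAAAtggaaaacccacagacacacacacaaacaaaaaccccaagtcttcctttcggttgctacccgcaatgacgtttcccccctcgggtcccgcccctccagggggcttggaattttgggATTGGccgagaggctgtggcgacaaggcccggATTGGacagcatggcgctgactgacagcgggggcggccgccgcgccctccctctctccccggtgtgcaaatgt
Counted from the start site, TOP2A has TTTGAA at -194 and, reversed, at -151, and CCAAT at -244, -160, -93 and -53, all reversed. NCAPG has TTTGAA at -35 and no CCAAT. NCAPH has a CCAAT at -112 and no TTTGAA in the window. TOP2B has TTTGAA at -227 and CCAAT at -105 and -73, all reversed, and its other start site has neither motif. The 9 member genes in the table have 13 start sites between them. Of these 13, 5 had TTTGAA and 5 had CCAAT in the 250 bases, for each motif in 5 different genes. Of all 35116 promoters in the table, 13.3% had TTTGAA and 32.0% had CCAAT. Another motif, GCGGGAA, was found at 2 of the 13 start sites, those of NCAPG and NCAPD3, and in 5.52% of all promoters. A match of letters is a description and not a binding site.

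Values are taken as log2 because they ran from 0.89 to 13.81. No label names the base, so every fold rests on this reading of the range. Levels are on the array scale of each probe set and are not compared between genes. Differences were tested with limma over all 18417 genes, and called means an adjusted p under 0.05. The labels were checked on marker genes of the agents. CDKN1A, the p21 gene of the p53 response, rose by 1.26 at 2 h after radiation (adjusted p = 5.28e-07) and CYP1A1, an aryl hydrocarbon receptor target, rose by 3.91 at 24 h after smoke extract (adjusted p = 1.54e-26). CDKN1A was 0.26 higher 24 h after cisplatin (adjusted p = 0.358), while 4 of the 7 p53 targets measured were called higher there, as were 2.15% of all genes, FAS and SESN1 among them. Keratins of an epithelial tumour were high (KRT8 11.96, KRT19 11.54) and EPCAM (5.28) and CDH1 (5.07) were low. Of the markers of other cell types, 1 of 9 leukocyte, 2 of 8 fibroblast and 1 of 7 endothelial genes averaged above 7. These were CD68 (9.41), COL1A1 (7.56) and COL3A1 (7.22), and CLDN5 (7.17). The lowest leukocyte and fibroblast genes were PTPRC at 3.40 and DCN at 3.12. As a measure of background, 453 olfactory, taste receptor and keratin-associated genes averaged 4.66 to 5.15 per array. In 3 arrays this mean lay over 0.2 from its group's median: the third of cisplatin + smoke extract 2 h, the second of nicotine 24 h and the third of radiation + smoke extract 24 h. Across the 54 arrays, deviations from the group mean correlated with this background at r = -0.80 for NCAPG2, -0.68 for SMC2, -0.67 for NCAPG, -0.61 for SMC4, -0.57 for TOP2B, -0.50 for NCAPH and -0.44 for TOP2A, and between -0.19 and 0.06 for NCAPH2, NCAPD2 and NCAPD3. With this mean as a covariate the number of members called 24 h after radiation alone was 7, as without it. The calls over all genes went from 3875 to 4794.

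Over the 18 groups, 9 of the 10 transcripts were lowest in a single condition, 24 h after radiation in cells pretreated with smoke extract. NCAPG averaged 7.27 there against 9.31 in untreated cells of the same time, NCAPH 7.62 against 9.54, and TOP2A 9.04 against 10.40. TOP2B was the exception, with its lowest mean of 8.57 in untreated cells and its highest of 9.06 after smoke extract, both at 24 h. An F test over the groups called all 10 genes, as it did 60.1% of all genes, with an adjusted p of 0.0342 for TOP2B and of 1.68e-10 or less for the others. The range of group means was 2.38 for NCAPG, 2.24 for NCAPH, 1.88 for NCAPG2, 1.68 for TOP2A and 1.67 for SMC2. It was 0.66 for NCAPH2 and 0.49 for TOP2B, against a median within-group SD of 0.07 and 0.08.

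**Figure D1:**
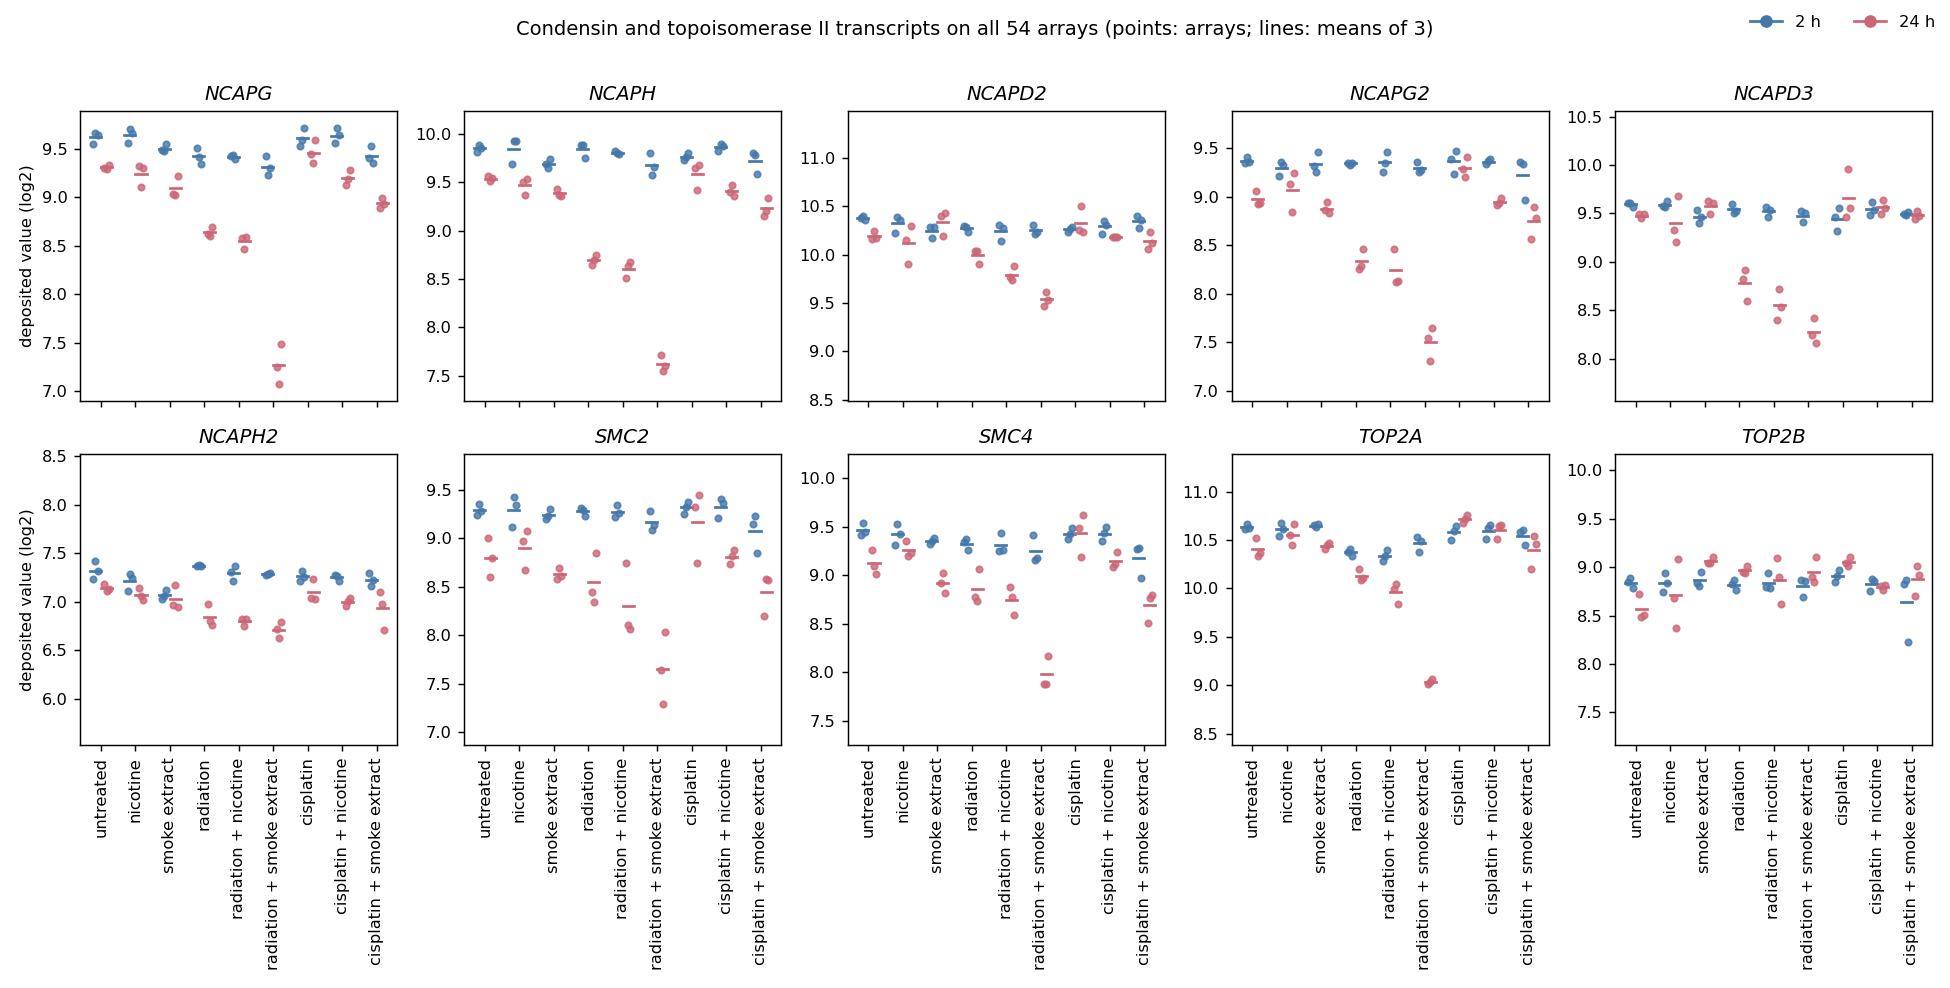
Deposited log2 values of the 10 genes on each of the 54 arrays (points) with the mean of the 3 arrays of a group (lines), by treatment along the horizontal axis, at 2 h (blue) and 24 h (red). Each vertical axis spans 3 log2 units. The 24 h mean of radiation + smoke extract is the lowest in 9 panels, at 7.27 for NCAPG, with single NCAPH2 arrays of other groups at the same level, while TOP2B stays between 8.57 and 9.06 in its group means.

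Radiation alone lowered 6 of the 10 transcripts at 24 h and raised TOP2B. Of all genes, 21.0% were called in this comparison, 11.0% lower and 10.0% higher. The 3 non-SMC subunits of condensin II, NCAPG and NCAPH of condensin I, and TOP2A fell. NCAPD2, SMC2 and SMC4 had negative differences that were not called. In these bulk cultures, fewer cells in a given phase and less RNA per cell cannot be told apart.

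NCAPH, the kleisin of condensin I, read 9.56, 9.51 and 9.54 in untreated cells and 8.65, 8.70 and 8.75 after radiation. The arrays did not overlap and were tight in both groups, and the fall was 1.79-fold (log2 -0.84, SE 0.07, adjusted p = 1.18e-12). NCAPG, its HEAT-repeat partner, read 9.30, 9.29 and 9.33 untreated against 8.62, 8.60 and 8.70 irradiated, a 1.59-fold fall (log2 -0.67, SE 0.08, adjusted p = 5.74e-09). NCAPD2, the other HEAT-repeat subunit of that complex, did not follow to the same extent. Its arrays read 10.16, 10.24 and 10.17 against 10.04, 10.04 and 9.90, a difference of -0.20 (95% interval -0.34 to -0.05) with an adjusted p of 0.0512. All 3 irradiated NCAPD2 values lay below all 3 untreated ones, as for 16.1% of all genes.

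In condensin II, NCAPD3 read 9.49, 9.46 and 9.49 in untreated cells and 8.82, 8.92 and 8.59 after radiation, a 1.63-fold fall (log2 -0.70, SE 0.09, adjusted p = 1.67e-07). NCAPG2 fell 1.56-fold, from 9.06, 8.93 and 8.94 to 8.25, 8.29 and 8.46 (log2 -0.64, adjusted p = 2.03e-06). Both genes separated the groups completely. The kleisin NCAPH2 fell less, by 1.23-fold (log2 -0.30, SE 0.08, adjusted p = 0.0041), from 7.19, 7.11 and 7.13 to 6.97, 6.80 and 6.76. The shared ATPases were the most variable members after radiation, and their groups overlapped. SMC2 read 9.00, 8.60 and 8.80 against 8.45, 8.34 and 8.84 (log2 -0.26, 95% interval -0.56 to 0.05, adjusted p = 0.272). SMC4 read 9.26, 9.10 and 9.01 against 8.78, 8.73 and 9.07 (log2 -0.26, 95% interval -0.47 to -0.06, adjusted p = 0.0535). SMC4 and NCAPD2 passed the threshold in the fit without the 3 arrays of deviating background (adjusted p = 0.0304 and 0.0286). None of those arrays was in the groups compared here. Both differences therefore stayed the same, and only the spread estimated over all groups and the adjustment changed.

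After radiation alone the topoisomerases moved in opposite directions at 24 h. TOP2A read 10.52, 10.34 and 10.36 in untreated cells and 10.20, 10.08 and 10.11 after radiation, without overlap, and fell 1.21-fold (log2 -0.27, SE 0.07, adjusted p = 0.00207). TOP2B read 8.72, 8.49 and 8.50 untreated and 8.95, 8.94 and 9.01 irradiated, a 1.31-fold rise (log2 0.39, SE 0.12, adjusted p = 0.0121). The TOP2B call was lost without the second untreated array (log2 0.35, adjusted p = 0.0608) or without the third (0.36, adjusted p = 0.0565), with a difference of similar size. Averaged over the 3 pretreatments the radiation difference of TOP2B was 0.15 (adjusted p = 0.103).

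In cells pretreated with nicotine, radiation lowered 9 of the 10 transcripts at 24 h, where 15.3% of all genes were called (6.66% lower). NCAPH fell by 0.86 on the log2 scale, NCAPD3 by 0.85, NCAPG2 by 0.83, NCAPG by 0.70, SMC2 by 0.60, TOP2A by 0.59, SMC4 by 0.52, NCAPD2 by 0.32 and NCAPH2 by 0.27, with adjusted p of 0.0111 for NCAPH2 and 0.00402 or less for the others. TOP2B differed by 0.16 (adjusted p = 0.466). The NCAPH2 call was lost without the first nicotine array (adjusted p = 0.0773) or the second radiation + nicotine array (0.0535). In a fit of the compared groups alone the calls of NCAPD2 (adjusted p = 0.198) and NCAPH2 (0.354) were lost. That more members were called here than without nicotine does not show a larger effect. The difference between these radiation effects was called for 0 of 10 members by limma, 0% of all genes, and only TOP2A had an unadjusted p under 0.05, with a difference of -0.32 (SE 0.10, 95% interval -0.51 to -0.12, adjusted p = 0.998).

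In cells pretreated with smoke extract, the same 9 transcripts fell after radiation and by more, with 14.2% of all genes called (9.96% lower). NCAPG fell 3.54-fold (log2 -1.83, SE 0.08, adjusted p = 1.58e-23), NCAPH 3.39-fold (log2 -1.76, adjusted p = 3.36e-24) and TOP2A 2.64-fold (log2 -1.40, adjusted p = 2.05e-21). Condensin II followed, with NCAPG2 falling by 1.38 and NCAPD3 by 1.30 on the log2 scale. SMC2 fell by 0.97, SMC4 by 0.95 and NCAPD2 by 0.80. NCAPH2 fell by 0.32 (adjusted p = 0.00321), close to its value without pretreatment, and that call was lost without the second smoke extract array (adjusted p = 0.0562) and in a fit of the compared groups alone (0.165). TOP2B differed by -0.11 (95% interval -0.35 to 0.13, adjusted p = 0.623). The median of the 10 differences was -1.14 against 0.01 over all genes. Without pretreatment these medians were -0.28 and 0.03.

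**Figure D2:**
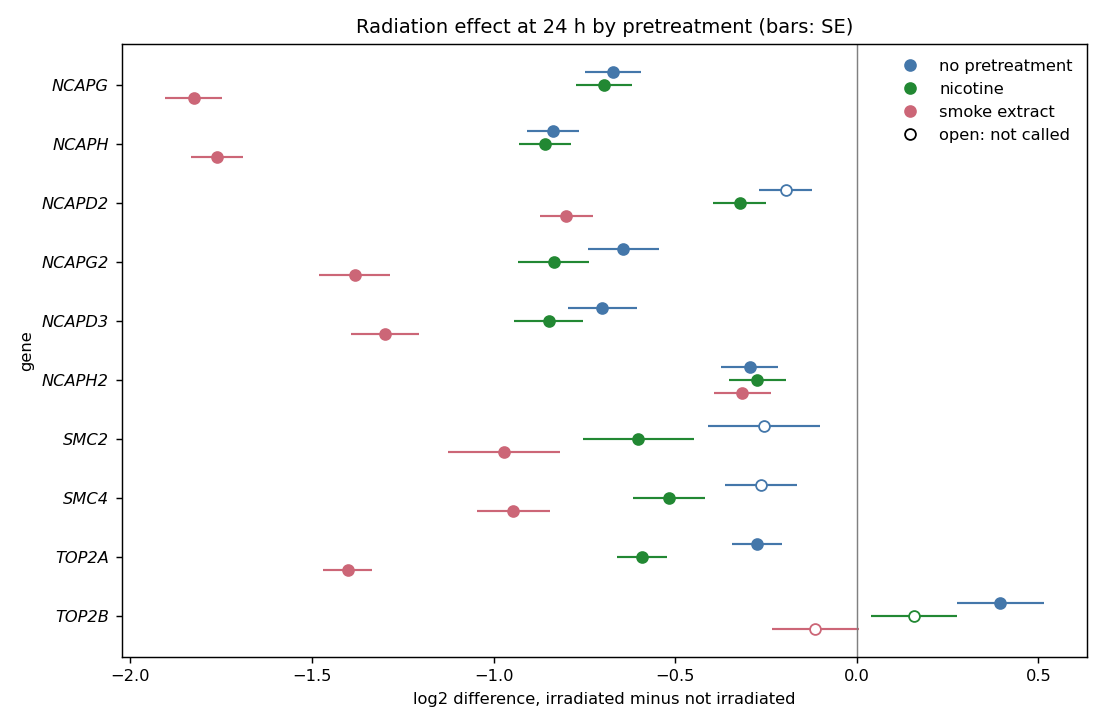
Radiation minus no radiation at 24 h (log2, points, with standard errors as bars) for each gene in cells without pretreatment (blue), with nicotine (green) or with smoke extract (red). Open points were not called. The red points lie farthest left, at -1.83 for NCAPG and -1.40 for TOP2A, and for TOP2B at -0.11, whereas the 3 points of NCAPH2 lie between -0.32 and -0.27.

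Smoke extract alone left most of these transcripts near the untreated level at 24 h, and 2 of 10 were called, against 16.1% of all genes. TOP2B rose 1.41-fold, from 8.72, 8.49 and 8.50 to 9.04, 9.05 and 9.11 (log2 0.49, SE 0.12, adjusted p = 0.00274). Averaged over the 3 therapies its difference was 0.10 (adjusted p = 0.279), while the 9 other members were called lower, with 27.7% of all genes called. NCAPG fell 1.16-fold, from 9.30, 9.29 and 9.33 to 9.04, 9.02 and 9.22 (log2 -0.22, adjusted p = 0.0472), a call that was lost on leaving out the first or the second smoke extract array or any of the untreated arrays (adjusted p 0.0912 to 0.173). TOP2A showed no such shift, reading 10.41, 10.44 and 10.47 (log2 difference 0.03, 95% interval -0.10 to 0.17).

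In irradiated cells the same pretreatment lowered 8 of the 10 at 24 h, where 8.23% of all genes were called (5.68% lower). NCAPG read 8.62, 8.60 and 8.70 after radiation alone and 7.25, 7.07 and 7.48 with smoke extract, a 2.59-fold fall (log2 -1.37, SE 0.08, adjusted p = 9.56e-19). TOP2A read 10.20, 10.08 and 10.11 against 9.01, 9.04 and 9.07, a 2.13-fold fall (log2 -1.09, SE 0.07, adjusted p = 3.13e-17). NCAPH read 8.65, 8.70 and 8.75 against 7.72, 7.55 and 7.60, a 2.11-fold fall (log2 -1.08, adjusted p = 2.39e-16). In each of these genes the gap between the groups was several times the spread within them. SMC2 (8.45, 8.34 and 8.84 against 7.64, 7.29 and 8.04) fell by 0.89 and SMC4 (8.78, 8.73 and 9.07 against 7.88, 7.88 and 8.17) by 0.88, both 1.85-fold. For both ATPases, NCAPG and TOP2A, the third radiation + smoke extract array, which was among the 3 of deviating background, was the highest of its group. For NCAPH the first array was the highest. NCAPG2 fell by 0.84, NCAPD3 by 0.50 and NCAPD2 by 0.45. NCAPH2 (-0.13, 95% interval -0.29 to 0.02) and TOP2B (-0.02, 95% interval -0.26 to 0.22) were not called.

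The test of the difference itself, the radiation effect with smoke extract minus that without, called 7 of the 10, all negative, at a background of 2.57% of genes (1.84% lower). NCAPG had -1.15 (SE 0.11, adjusted p = 4.75e-10), TOP2A -1.13 (SE 0.10, adjusted p = 2.79e-11) and NCAPH -0.92 (SE 0.10, adjusted p = 1.64e-08). Smaller differences were called for NCAPG2 (-0.74), SMC4 (-0.68), NCAPD2 (-0.60) and NCAPD3 (-0.60). The SMC4 call was lost in a fit of the 4 compared groups alone (adjusted p = 0.0527). SMC2 (-0.72, SE 0.22, adjusted p = 0.0596) and TOP2B (-0.51, SE 0.17, adjusted p = 0.0879) missed the threshold. Without the arrays of deviating background both passed it (adjusted p = 0.00599 and 0.00531). NCAPH2 alone had a difference near 0 (-0.02, 95% interval -0.24 to 0.20). The same contrast of the background genes was -0.01. With their mean as a covariate 9 members were called, and the calls over all genes went from 474 to 1218. On leaving out any single array of the 4 groups, 7 to 8 members were called.

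Set against untreated cells, the combination lowered NCAPG 4.12-fold, where the log2 changes of the single agents, -0.67 and -0.22, add to -0.89 and the combined change was -2.04. For NCAPH the sum was -0.99 and the combined change -1.91. For TOP2A the sum was -0.24 and the combined change -1.37, and for NCAPD2 they were -0.05 and -0.65. For NCAPH2 the sum of -0.41 and the combined change of -0.43 nearly matched. TOP2B was higher than untreated after either agent (sum 0.89), and the combination was 0.38 above untreated.

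**Figure D3:**
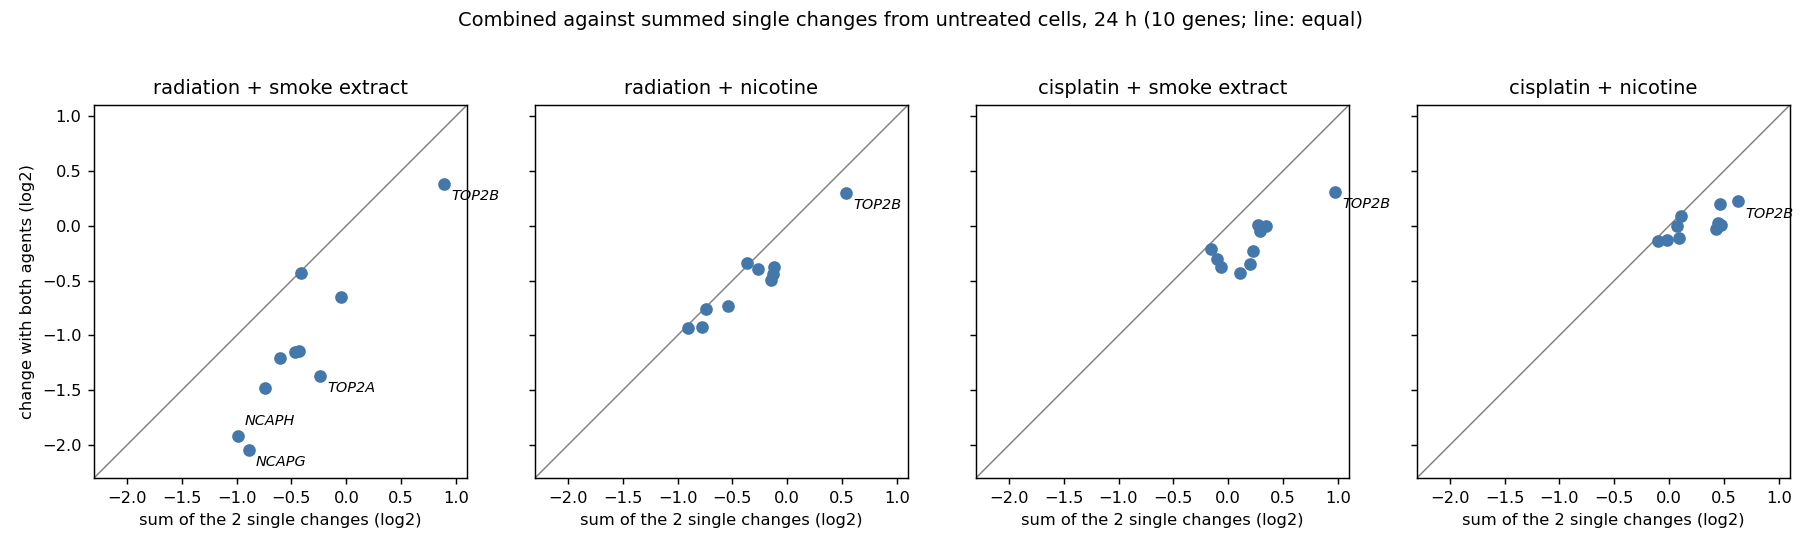
For each pair of agents at 24 h, the log2 change from untreated cells with both agents (vertical axis) against the sum of the changes with each agent alone (horizontal axis); each point is 1 of the 10 genes and the line marks equal values. Both axes use the same untreated arrays. With radiation + smoke extract, 9 points lie well below the line, NCAPG at -2.04 against -0.89, and NCAPH2 lies near it at -0.43 against -0.41.

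After cisplatin, 0 of the 10 transcripts were called lower at 24 h, and 3 were called higher against untreated cells, where 3.80% of all genes were called (2.15% higher). TOP2A read 10.52, 10.34 and 10.36 untreated and 10.68, 10.71 and 10.76 with cisplatin, a 1.24-fold rise (log2 0.31, SE 0.07, adjusted p = 0.00497). TOP2B rose 1.40-fold, to 9.04, 9.01 and 9.10 (log2 0.48, adjusted p = 0.0147), and NCAPG2 1.25-fold, to 9.29, 9.20 and 9.41 (log2 0.32, adjusted p = 0.0498). These calls rested on few arrays. The NCAPG2 call was lost whichever of the 6 arrays was dropped (adjusted p 0.0659 to 0.199). The TOP2A call was lost without the second untreated array (0.0534) and in a fit of the compared groups alone (0.0626), and the TOP2B call without the second (0.0889) or the third (0.0744) untreated or the third cisplatin array (0.055). The background genes were 0.08 lower with cisplatin, and averaged over the pretreatments the cisplatin effect was called for 0 of 10 members and 5.03% of all genes, and TOP2A (0.11, adjusted p = 0.104) was the nearest to the threshold.

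After nicotine or smoke extract, limma called 0 of 10 members for cisplatin at 24 h, with 0.451% and 0.0814% of all genes called, and 0 and 3 members had an unadjusted p under 0.05. Radiation and cisplatin could be compared directly. At 24 h, 9 of the 10 were lower after radiation than after cisplatin, at a background of 13.0% (7.91% lower). In a fit of the compared groups alone 6 were called, without NCAPD2 (adjusted p = 0.0833), SMC2 (0.108) and NCAPH2 (0.235). NCAPG2 was 1.95-fold lower (log2 -0.97, adjusted p = 3.13e-10), NCAPH 1.84-fold (log2 -0.88, adjusted p = 5.13e-13) and TOP2A 1.50-fold (log2 -0.59, adjusted p = 9.93e-09). TOP2B did not follow, at -0.09 (95% interval -0.33 to 0.15). The NCAPH2 call (log2 -0.26) was lost without the second or the third radiation or the second cisplatin array (adjusted p 0.0796 to 0.107), and the SMC2 call (log2 -0.63) without the third cisplatin array (0.0628).

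In cisplatin-treated cells smoke extract lowered 7 of the 10 at 24 h, where 28.6% of all genes were called (14.1% lower). SMC4 read 9.49, 9.18 and 9.62 with cisplatin alone and 8.51, 8.76 and 8.80 with smoke extract added (log2 -0.74, SE 0.10, adjusted p = 3.67e-07). SMC2 fell by 0.72, NCAPG2 by 0.55, NCAPG by 0.52, NCAPH by 0.35 and TOP2A by 0.32. NCAPD2 fell by 0.19, a call lost on leaving out any of 4 arrays: the second or the third of cisplatin, or the first or the third of cisplatin + smoke extract (adjusted p 0.0564 to 0.251), and also in a fit of the compared groups alone (0.163). The background genes were 0.24 higher with smoke extract here, and with their mean as a covariate 6 members were called. That covariate took the calls over all genes from 5275 to 1309. The difference between the cisplatin effects with and without smoke extract was called for 0 of 10 members by limma, at 0.152% of all genes. Without the 3 arrays of deviating background, 6 members were called, and the calls over all genes went from 28 to 1019. None of those arrays was in the groups compared here. The differences therefore stayed the same, and only the spread estimated over all groups and the adjustment changed. In the fit with all arrays, all 10 differences were negative (median -0.35), 8 had an unadjusted p under 0.05, and the background genes differed by 0.23. Set against untreated cells, cisplatin + smoke extract changed SMC4 by -0.43, NCAPG by -0.37, SMC2 by -0.35 and NCAPH by -0.31. NCAPG2 changed by -0.23, NCAPD2 by -0.05 and TOP2A by -0.01. These changes from untreated cells were not tested.

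**Figure D4:**
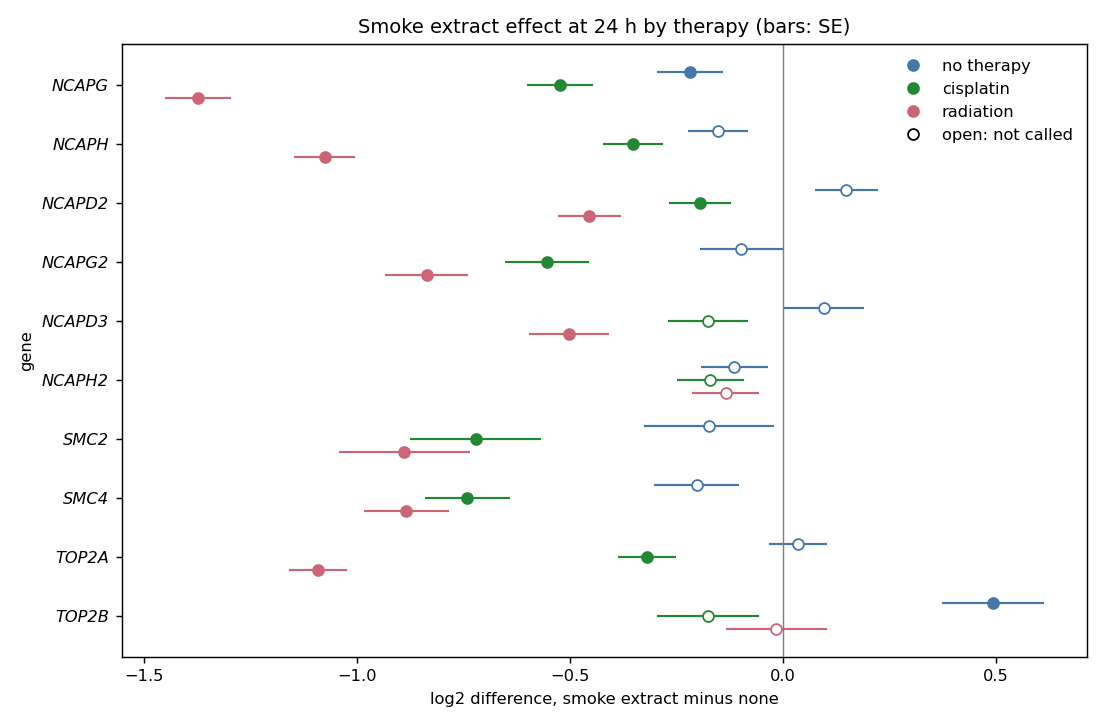
Smoke extract minus no pretreatment at 24 h (log2, points, with standard errors as bars) for each gene in cells without therapy (blue), with cisplatin (green) or with radiation (red). Open points were not called. The red points of NCAPG, NCAPH and TOP2A lie at -1.37, -1.08 and -1.09, and the blue points of 9 genes lie between -0.22 and 0.15, with TOP2B at 0.49.

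Nicotine alone gave no call among the 10 at either time. At 24 h limma called 0 members and 0.00543% of all genes, and TOP2A alone had an unadjusted p under 0.05 (log2 0.15, 95% interval 0.01 to 0.28). In irradiated cells nicotine gave 0 calls, with 0.00543% of all genes called, and NCAPD2 (-0.20), NCAPD3 (-0.22) and TOP2A (-0.17) had an unadjusted p under 0.05. In cisplatin-treated cells 3 members were called lower at 24 h, NCAPG2 by 0.36, SMC4 by 0.28 and NCAPG by 0.26 on the log2 scale, at a background of 17.8% (9.56% lower). The background genes were 0.21 higher with nicotine in this comparison. With their mean as a covariate 0 members were called, and the calls over all genes went from 3280 to 23. The 3 calls were lost without the third cisplatin or the first or the second cisplatin + nicotine array, and SMC4 also without the first cisplatin or the third cisplatin + nicotine array.

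At 2 h no member was called for any agent in any of the 12 comparisons of an agent with its absence. In these limma called 0% to 5.46% of all genes. For radiation 0.304% of all genes were called without pretreatment, 0.228% with nicotine and 0.157% with smoke extract. For smoke extract they were 3.77% without therapy, 2.66% in irradiated and 5.46% in cisplatin-treated cells. Cisplatin alone gave 0.00543%, and cisplatin after either pretreatment and nicotine in any setting gave 0%. The number of members with an unadjusted p under 0.05 was at most 3. TOP2A was the member nearest the threshold after radiation. It read 10.62, 10.67 and 10.63 in untreated cells and 10.37, 10.41 and 10.34 after radiation, without overlap (log2 -0.26, SE 0.07, adjusted p = 0.0787). The difference was -0.27 with nicotine and -0.18 with smoke extract. Averaged over the 3 pretreatments it was called for TOP2A (-0.24, SE 0.04, adjusted p = 6.98e-05) and NCAPG (-0.20, SE 0.04, adjusted p = 0.00644), with 1.35% of all genes called. NCAPH2 was the member nearest the threshold after smoke extract alone (log2 -0.25, SE 0.08, adjusted p = 0.0655). The smoke extract difference averaged over the 3 therapies was called for NCAPG (-0.14, adjusted p = 0.0454) and NCAPH (-0.12, adjusted p = 0.0459), with 9.28% of all genes called.

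The radiation effect at 24 h minus that at 2 h was called for 5 members, at a background of 13.0% of genes (6.94% lower). NCAPH differed by -0.83 (adjusted p = 8.57e-08), NCAPD3 by -0.65, NCAPG2 by -0.61, NCAPG by -0.48 and NCAPH2 by -0.34. The NCAPH2 call (adjusted p = 0.0313) was lost on leaving out the first or the third untreated 2 h array, the first untreated 24 h array, the first or the second radiation 2 h array, or the second or the third radiation 24 h array (0.0577 to 0.103). For TOP2A the radiation effects at the different times differed by -0.01 (95% interval -0.20 to 0.18).

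Untreated cells had lower values of all 10 genes at 24 h than at 2 h, without overlap of the arrays, as for 16.4% of all genes. Of these, 3 were called, at a background of 1.92% (1.04% lower): NCAPG2 by 0.40, NCAPG by 0.31 and NCAPH by 0.31 on the log2 scale lower. The calls depended on single arrays. None was left without the second untreated array of either time, and 1 without the third of either time.

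Other chromosome genes were read from lists chosen for their function, with earlier results of these data known. Their counts 24 h after radiation stand against 11.0% of all genes lower and 10.0% higher. Among cohesin and its regulators, 7 of 17 fell and 1 rose 24 h after radiation. PTTG1, the securin gene, fell by 1.24 and CDCA5, the sororin gene, by 1.05. Of the chromosome axis, surface and condensation factors, 12 of 14 measured fell, with AURKB, the kinase of the chromosomal passenger complex, at -1.54 and MKI67, the Ki-67 gene, at -1.16. MCPH1 and RCC1 of this list were not measured by a cluster of their own. Of the SMC5/6 complex, another SMC complex of chromosomes, 1 of 9 genes fell (NSMCE4A, -0.35), a share near that of all genes, and 3 of 10 other topoisomerases and their repair enzymes fell (BLM, RMI1 and TDP1). Of 13 DREAM, B-MYB and FOXM1 regulators of cell cycle genes, 6 fell, MYBL2 by 0.71 and FOXM1 by 0.48, and 2 rose. All 7 measured p53 targets rose, TP53INP1 by 1.93.

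In the interaction of radiation and smoke extract at 24 h, 1.84% of all genes were called negative, so that 0 of 9 or 0 of 7 is what that share gives. It was called negative for 8 of 14 axis and condensation factors (PLK1 -1.02, KIF4A -0.95), 4 of 17 cohesin genes (SGO1 -1.08, ESCO2 -1.06), 3 of 13 DREAM, B-MYB and FOXM1 regulators (FOXM1 -1.10, MYBL2 -0.90), 2 of 10 other topoisomerase genes (BLM -0.99, TDP1 -0.40), 0 of 9 SMC5/6 genes and 0 of 7 p53 targets, none positive. The list medians were -0.72, -0.25, -0.32, -0.12, -0.22 and -0.12, against -0.70 for the 10 condensin and topoisomerase II genes and -0.03 for all genes. Among the markers of other cell types, the fibroblast genes PDGFRB and LUM were called, each as 1 of 8, PDGFRB 0.54 higher after radiation and LUM 0.61 higher after smoke extract alone. The epithelial keratin gene KRT19 fell by 0.40 after smoke extract alone (adjusted p = 0.000308) and by 0.29 with smoke extract in irradiated cells (adjusted p = 0.0115). The summed fibroblast level ranged from 9.27 to 9.55 over the groups, and its part in the results was not tested.

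Likeness to the members was measured as Pearson's r of the 18 group means, over 9198 genes above the median level. The points share the arrays and the treatments, so r is a description. Nearest to TOP2A were PLK1 (0.98), ASPM (0.98), KIF20A (0.98), BUB1 (0.97) and ESCO2 (0.97). Nearest to NCAPG were NUF2, ANLN, SGO1, DLGAP5 and KIF20A, all at 0.99. Nearest to NCAPH2 were DONSON (0.98), RAD9A (0.98), POLD1 (0.97), NUP54 (0.97) and GINS3 (0.97), genes of DNA replication, checkpoint and nuclear pore. For TOP2B the nearest were MYSM1 (0.87), CUL4B (0.87), SNX13 (0.84), RIMOC1 (0.83) and TRPM7 (0.82). Among the members themselves, the 36 pairs without TOP2B had r from 0.67 to 0.99 (median 0.91), and TOP2B had r from -0.35 to -0.15 with the other 9. Within groups the picture differed: the deviations of TOP2B from its group means had r of -0.06 to 0.80 with those of the others (median 0.53). The 36 pairs without TOP2B had -0.40 to 0.84 (median 0.25). These deviations share array background, with which TOP2B correlated at -0.57 and NCAPG2, its nearest member, at -0.80. With NCAPH2, NCAPD3 and NCAPD2, the members least tied to that background, TOP2B had r of -0.06, 0.17 and 0.27. The part of background in these r was not tested.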

How the data were processed

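Expression of NCI-H460 cells was measured on 54 one-colour whole-transcript arrays, 1 per culture. The deposited table holds log2 values, with the base inferred from their range. They were made with Affymetrix Power Tools 1.15.0, per the submitters' processing notes. Their summarization, background correction and normalization are not given in the sources used here, and values were used as deposited. Array medians ran from 6.43 to 6.63. Of 33297 clusters, 19460 had exactly 1 symbol in the platform annotation, 1754 several and 12083 none, and the highest-mean cluster per symbol gave 18417 genes. Sample columns left unused numbered 0. Without detection calls, a low level may be background, and the number of arrays limits the precision.

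One model of 18 group means was fitted to all arrays with limma 3.58.1 in R 4.3.3 (data.table, version 1.17.8), leaving 36 residual degrees of freedom, with eBayes and an intensity trend. Tests were two-sided, with Benjamini-Hochberg adjustment over all genes and calls at 0.05. The fit was tested on simulated data. Intervals are 95% and unadjusted. The members and lists were chosen with earlier results of these data known. All 10 members are named, and of each other list up to 4 called genes per comparison with the largest absolute change. For TOP2A, NCAPG, NCAPH2 and TOP2B the 5 genes most alike in group means are named. Groups share replicate numbers in the labels. Same-numbered deviations correlated above 0.1 in all 3 numbers for 10 of 153 group pairs, a likeness that comes from the data and not the labels. Among these were radiation with radiation + smoke extract at 24 h (r = 0.235, 0.208 and 0.553) and nicotine with radiation + nicotine at 24 h (0.397, 0.228 and 0.173). Over the 153 pairs r ran from -0.547 to 0.676 (median 0.03). Cisplatin with cisplatin + smoke extract at 2 h went the other way, at -0.307, -0.543 and -0.547. Promoter sequences were taken from RefSeq for 9 of 10 members. Alternatives covered normalization, trend, filter, background covariate, groups fitted, averaged effects, the replicate block and each array left out.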

Additional observations from a re-analysis of the deposited data

Results flagged for a closer look

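The radiation effect at 24 h differed between cells with and without smoke extract for 7 genes, by the interaction term of the limma model. The difference, radiation effect with smoke extract minus that without, was -1.15 for NCAPG (SE 0.11, adjusted p = 4.75e-10), -1.13 for TOP2A (SE 0.10, adjusted p = 2.79e-11) and -0.92 for NCAPH (SE 0.10, adjusted p = 1.64e-08). It was -0.74 for NCAPG2 (adjusted p = 0.000775), -0.68 for SMC4 (0.00296), -0.60 for NCAPD2 (0.000209) and -0.60 for NCAPD3 (0.00648).

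The radiation effect in cells without pretreatment also differed between 24 h and 2 h for 5 genes, by the same kind of term. The effect at 24 h minus that at 2 h was -0.83 for NCAPH (adjusted p = 8.57e-08), -0.65 for NCAPD3 (0.00053), -0.61 for NCAPG2 (0.0016), -0.48 for NCAPG (0.00194) and -0.34 for NCAPH2 (0.0313).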

How the results depend on the processing

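Counts of called members are given with the number in the main analysis first. Small changes of a count are not all listed. Quantile normalization turned 0 into 1 for radiation at 2 h, radiation after nicotine at 2 h and the difference between cisplatin effects with and without smoke extract at 24 h, and 3 into 1 for nicotine in cisplatin-treated cells at 24 h. Testing only genes above the median level turned 0 into 1 for the same 3 comparisons and for smoke extract at 2 h, and 3 into 5 for untreated cells over time. Without an intensity trend, or with all rows tested, smoke extract at 24 h went from 2 to 1. In the same order, NCAPG2 was lost for cisplatin at 24 h (adjusted p = 0.0624 and 0.0595). NCAPD2 was lost for smoke extract in cisplatin-treated cells at 24 h (0.054 and 0.057). With all rows tested, SMC4 was lost for nicotine in cisplatin-treated cells at 24 h (0.06). With the background covariate radiation at 2 h and smoke extract at 2 h went from 0 to 1. Nicotine in cisplatin-treated cells went from 3 to 0. In the same order, the calls over all genes went from 56 to 137, 695 to 948 and 3280 to 23. The fit without the 3 arrays of deviating background was added after seeing the data. There radiation at 2 h had 1, untreated cells over time 6, nicotine in cisplatin-treated cells 6 and the difference between cisplatin effects 6. In the same order, the calls over all genes went from 56 to 91, 354 to 668, 3280 to 5461 and 28 to 1019. None of the 3 arrays was in the groups of these comparisons. Their differences therefore stayed the same, and only the spread estimated over all groups and the adjustment changed. Fitting only the compared groups gave 1 for radiation at 2 h, 1 for cisplatin at 24 h, 8 for untreated cells over time and 1 for nicotine in cisplatin-treated cells. Calls over all genes were not counted for these fits, nor for the normalization, trend, filter or row settings or single arrays left out. Averaged over the other factor, radiation at 2 h had 2, smoke extract at 2 h 2, cisplatin at 24 h 0, smoke extract at 24 h 9 and nicotine at 24 h 1. In the same order, 1.35%, 9.28%, 5.03%, 27.7% and 5.21% of all genes were called. In that average smoke extract lowered NCAPD2 (-0.17), NCAPD3 (-0.19) and TOP2A (-0.46) at 24 h, reversing their positive values without therapy. That average pools cells without therapy, irradiated and cisplatin-treated cells. The causes of these changes were not tested. Leaving out 1 array gave 0 to 4 for untreated cells over time, 0 to 4 for cisplatin at 24 h, 1 to 2 for smoke extract at 24 h, 0 to 5 for nicotine in cisplatin-treated cells, 0 to 3 for the difference between cisplatin effects and 0 to 1 for cisplatin after nicotine at 24 h. It gave 6 to 8 for radiation at 24 h, 8 to 10 after nicotine, 8 to 9 after smoke extract, 8 to 8 for smoke extract in irradiated cells and 7 to 8 for the interaction of radiation and smoke extract. A block of replicate number, shared by all 18 groups, changed no member call. It gave 7 members for radiation at 24 h, 8 for smoke extract in irradiated cells and 7 for the interaction. Such a block cannot model a likeness limited to some group pairs, so it does not test the pairs named above. Over single genes, 4117 values kept their side of the threshold. They also kept direction or, where uncalled, changed sign by no more than the SE of the main value. A further 33 uncalled values changed sign by more than that, 89 lost and 78 gained a call, and 3 reversed. Other clusters of a member could not be tried, since each has 1.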
